A study of Homo sapiens with 8 samples.

Results

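The AB8 line is a human cell line derived from podocytes, the epithelial cells that cover the capillaries of the kidney's filter. The libraries described here are the 4 made from non-induced AB8 cells, chosen by their columns in the raw count table (non-induced replicates 1 to 4). They are 4 of the 8 libraries in the series. All of these cells carry the inducible construct pIND21_hCrb2+GFP_S267A, which encodes human CRB2 with GFP and an S267A change, they were at passages 3 to 8 after that modification, and they received no inducer. The other 4 libraries came from induced cells and enter no value below. No unmodified AB8 cells are among the samples, so each level given here is that of the modified line. The labels name the cell line but not whether the replicates were separate cultures, so every SD measures the spread between these libraries, which may be technical in part. They also do not state how the line was immortalised or at what temperature the cells were kept.

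A podocyte in the glomerulus is a non-dividing cell with interdigitating foot processes, joined by the slit diaphragm, a junction built around nephrin. During kidney development the transcription factors PAX2, PAX8 and WT1 mark the nephron progenitors. WT1 then persists in podocytes, whereas PAX2 and PAX8 persist in the parietal cells of Bowman's capsule and in tubule cells. In culture, podocyte lines spread on plastic, build actin stress fibres and deposit matrix, and many markers of the differentiated cell are known to be low before such lines are differentiated.

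Libraries held between 16829454 and 21731488 counted reads. Levels of 1 gene across libraries are given as counts per 1000000 of the TMM-scaled library total (CPM), where TMM is edgeR's trimmed-mean scaling. Levels of different genes are compared only as TPM, meaning reads per kilobase of merged exons scaled to the same total in each library. Where a gene had 0 reads, a true value of up to 3 reads is not excluded at this depth, which corresponds to 0.140 to 0.178 CPM and covers counting error only. A gene is called detected below when it reached 1 CPM in all 4 libraries. That held for 13228 of 58395 genes and for 11653 of 19892 protein-coding genes, or 58.6%. The remaining protein-coding genes included 3789 with no read at all. Library 1 stood apart from libraries 2 to 4, which is described at the end, so values that rest on it are given per library or with library 1 left out. In a check of sample identity, 1 library did not match the rest of its group. The 4 libraries can therefore not be assumed to hold the same cells, and each mean over n = 4 includes that library. Why it did not match was not tested. Genes of chromosome Y and XIST are not reported.

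Promoters of 4 genes, chosen with their levels known, are shown as examples of detected and undetected genes. PAX8 and HAVCR1 were transcribed, and NPHS1, which encodes nephrin, and TIMP3, an inhibitor of metalloproteinases, were not detected. Each sequence is the RefSeq reference (GRCh38.p14) for the bases before the annotated start, read 5′ to 3′ on the gene's strand, with CG dinucleotides in capitals. Bases that lie in any GENCODE 29 exon were left out, so that 221 bases of the 250-base window are printed for PAX8, 250 for NPHS1, 246 for TIMP3 and 247 for HAVCR1.
PAX8, chr2:113278951-113279171, minus strand: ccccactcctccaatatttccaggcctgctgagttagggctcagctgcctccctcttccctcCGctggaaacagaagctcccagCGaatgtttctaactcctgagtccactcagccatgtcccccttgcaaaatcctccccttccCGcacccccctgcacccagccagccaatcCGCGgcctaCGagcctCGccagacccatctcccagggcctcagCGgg
HAVCR1, chr5:157059120-157059366, minus strand: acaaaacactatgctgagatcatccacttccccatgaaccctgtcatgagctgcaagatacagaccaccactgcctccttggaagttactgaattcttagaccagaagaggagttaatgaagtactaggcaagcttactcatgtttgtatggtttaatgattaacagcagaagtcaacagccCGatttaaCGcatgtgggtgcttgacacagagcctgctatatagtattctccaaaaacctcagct
NPHS1, chr19:35852505-35852754, minus strand: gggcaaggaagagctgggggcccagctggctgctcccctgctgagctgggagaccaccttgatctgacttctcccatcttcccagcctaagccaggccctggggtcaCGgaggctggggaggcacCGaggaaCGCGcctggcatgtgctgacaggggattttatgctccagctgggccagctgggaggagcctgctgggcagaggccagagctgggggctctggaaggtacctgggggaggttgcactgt
TIMP3, chr22:32801455-32801700, plus strand: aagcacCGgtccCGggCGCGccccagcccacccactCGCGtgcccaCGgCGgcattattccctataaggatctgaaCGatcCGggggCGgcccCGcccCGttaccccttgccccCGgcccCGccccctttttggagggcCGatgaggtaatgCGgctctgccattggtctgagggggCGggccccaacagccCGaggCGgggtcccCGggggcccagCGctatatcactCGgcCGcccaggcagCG
Counting CG dinucleotides, read the same on both strands, the 250-base windows held 11 for PAX8, 2 for HAVCR1, 4 for NPHS1 and 26 for TIMP3. Of the 15314 protein-coding genes with a RefSeq window, those with 0 to 5 CG dinucleotides were detected in 19.95% of cases (685 of 3433), those with 6 to 10 in 43.3% (681 of 1573), those with 11 to 20 in 75.1% (3051 of 4065) and those with more in 82.3% (5141 of 6243). HAVCR1 was thus detected with a window of the class least often detected, and TIMP3 was not detected with a window of the class most often detected. Among the 408 listed genes that have a window, 31 held more than 20 CG dinucleotides there and were under 1 CPM in at least 1 library. For comparison, 6243 of all 15314 windows held more than 20, and 5141 of those genes were detected. Whether the listed genes differ from all genes in this was not tested. The motif TATAAA, searched on both strands, was present in 9.19% of all windows and in none of the 4 shown. These matches describe the letters of the windows and nothing more.

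The most abundant transcripts came from mitochondrial DNA, the actin cytoskeleton, glycolysis, translation and the matrix. By CPM, where long transcripts count for more, the mitochondrial ribosomal RNA MT-RNR2 came first at 10198 ± 1527 CPM (SD, n = 4), followed by ACTG1, the gene for cytoplasmic gamma-actin. ACTG1 gave 6290.5, 9453, 8882 and 8698 CPM in libraries 1 to 4. Library 1 was the lowest and libraries 2 to 4 lay within a narrow band. Further places among the 20 highest went to ACTB (5458 ± 1189 CPM), EEF1A1 (4869 ± 385 CPM), GAPDH (4595 ± 75.1 CPM), EEF2 (4268 ± 298 CPM), FN1, THBS1, MYH9, VIM, ENO1, FLNA, PKM, TUBB and GREM1, and to MT-CO1, MT-CO2, MT-CO3, MT-ND1 and MT-ND4. Per length, ACTG1 was at 10601 ± 1644 TPM, 1.82 ± 0.138 times ACTB, and was the highest protein-coding gene of the nuclear genome. Next among nuclear genes came TMSB10, which encodes an actin-monomer-binding thymosin, at 8256 ± 1042 TPM, ACTB at 5902 ± 1210.4 TPM, GAPDH at 5884 ± 179 TPM, the ferritin gene FTL at 5035 ± 1119 TPM and RPS12 at 4846 ± 407 TPM. Pseudogenes that share sequence with ACTG1, ACTB, GAPDH, KRT8 and KRT18 can take or give reads in the authors' counting, so the values of these genes are uncertain to that extent. Whether the counting used strand is not given, so reads of genes that overlap on opposite strands, KRT18 and POU5F1 among them, cannot be told apart either. The 100 highest genes of each library held 17.8% ± 0.665 of its reads (SD, n = 4), and mitochondrial genes held between 3.09% and 3.91%.

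Reads of the 80 ribosomal protein genes made up 4.98% to 5.85% of each library, and 78 of the 80 were detected, against 58.6% of protein-coding genes. Of the 13 protein genes encoded by mitochondrial DNA, all were detected, with a median of 5214 TPM. Library 1 had the highest summed level of ribosomal protein genes and the lowest of mitochondrially encoded protein genes, at 57094 and 18961 CPM against ranges of 50340.1 to 51948 and 21441 to 25997 CPM in libraries 2 to 4.

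**Figure D1:**
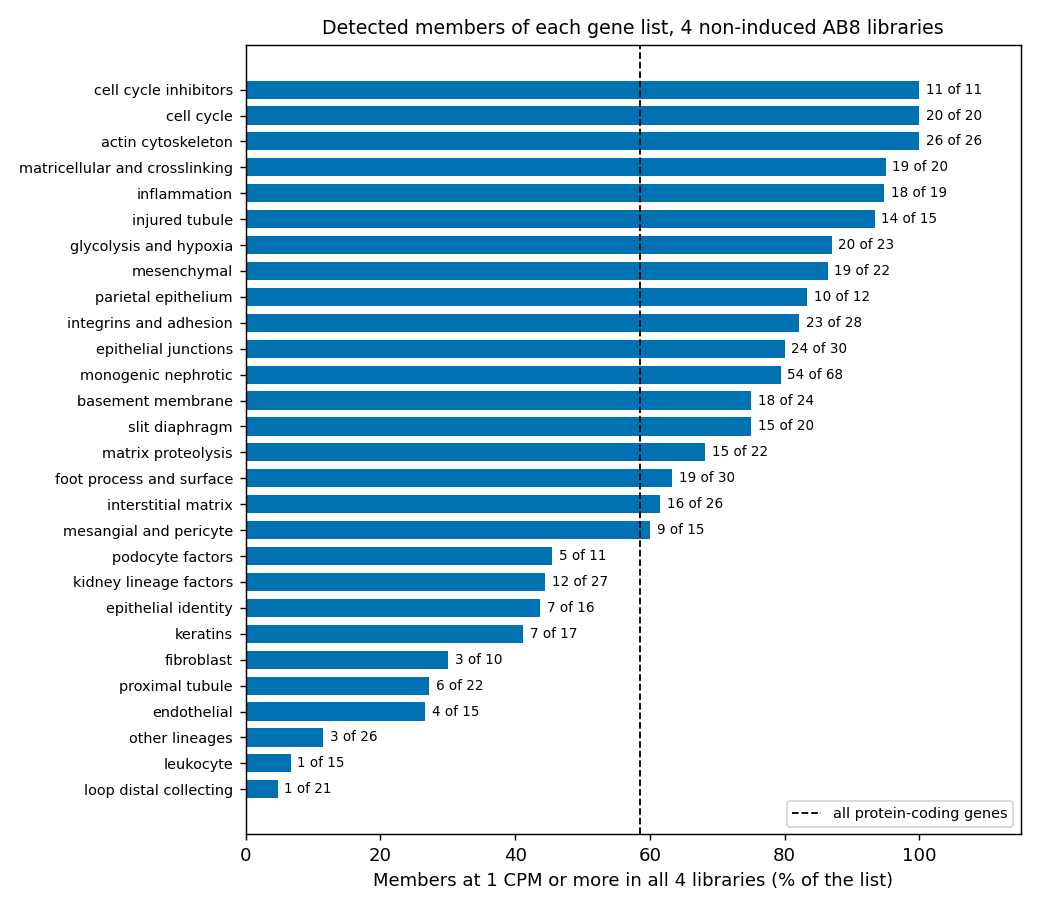
Horizontal bars give the percentage of each gene list that reached 1 CPM in all 4 non-induced libraries, with the counts beside them, and the dashed line marks all protein-coding genes (58.6%). Actin, cell cycle and matricellular lists stand to the right of the line, and lists of other nephron segments, leukocytes and other lineages stand far to its left.

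Kidney lineage factors were led by PAX8. In GENCODE 29 (GRCh38) the genes given as markers of these cells are PAX8 (ENSG00000125618, chr2:113215997-113278950, minus strand), PAX2 (ENSG00000075891, chr10:100735603-100829941, plus strand), WT1 (ENSG00000184937, chr11:32387775-32435630, minus strand), HAVCR1 (ENSG00000113249, chr5:157029413-157059119, minus strand), ACTG1 (ENSG00000184009, chr17:81509971-81523847, minus strand) and FN1 (ENSG00000115414, chr2:215360440-215436172, minus strand). For each gene in these bulk libraries, fewer cells that transcribe it and less RNA per cell cannot be told apart. The paired-box factor PAX8 gave 429, 439.6, 483 and 472 CPM, all 4 libraries lying close together, and stood at 235 ± 10.1 TPM, place 598 among protein-coding genes. LHX1, a homeobox factor of early nephrons, gave 75.4, 30.4, 38.02 and 38.8 CPM, and library 1 was the highest. PAX2 gave 11.5, 18.3, 16.5 and 22.0 CPM, with library 1 the lowest of the 4. Per length, PAX8 was 23.7 ± 5.95 times PAX2 (SD over the 4 libraries).

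WT1, a zinc-finger factor that podocytes require, was low. It gave 0.744, 3.68, 3.68 and 4.58 CPM, from 15, 79, 79 and 77 reads, so libraries 2 to 4 were close together and library 1 fell below 1 CPM. SOX9 (4.12, 16.5, 18.3 and 12.4 CPM) and SALL1 (3.57, 15.6, 17.8 and 13.4 CPM) showed the same order, with library 1 under every other library. HOXD11 gave 0.248, 4.43, 5.36 and 3.21 CPM and TFCP2L1, a factor of distal tubule and collecting duct, gave 0.149, 3.78, 4.61 and 2.61 CPM, again with library 1 at or near the limit set by 3 reads. Among the 27 listed kidney lineage factors 12 were detected (44.4%, against 58.6% of protein-coding genes), and 15 were when library 1 was left out, the additional genes being WT1, HOXD11 and TFCP2L1. In order of TPM, the libraries of LHX1 and SOX4 overlapped, as did those of SOX9 and PAX2.

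A further 10 factors of the list had 3 or fewer reads in every library. SIX2, which keeps nephron progenitors undifferentiated, had 6 reads over all 4 libraries, and HNF4A, a master factor of proximal tubules, had 2. IRX1, IRX2, POU3F3, TFAP2B and FOXI1 had none. OSR1 and EYA1, both of early kidney mesoderm, had 28 and 12 reads in all and stayed under 1 CPM in each library.

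HOX genes are transcribed in body-axis order during development, and many stay on in cells grown from a tissue. Of the 39 HOX genes 29 were detected (74.4%, against 58.6% of protein-coding genes). Mean levels per length were highest for HOXB9 (74.3 ± 34.1 TPM), HOXB7 (68.0 ± 9.44 TPM), HOXB2 (48.2 ± 6.03 TPM) and HOXA9 (41.4 ± 1.66 TPM). HOXB9 gave 125, 55.3, 55.8 and 60.8 TPM and HOXB7 57.0, 63.2, 75.8 and 75.8 TPM, so the first place of HOXB9 rests on library 1 and the libraries of the 2 genes overlapped. HOXA11, needed for kidney formation together with its paralogs, gave 13.9, 11.01, 11.7 and 12.5 CPM, and HOXC11 gave 3.72, 3.96, 3.87 and 4.397 CPM. The libraries of HOXA11 and HOXC11 each lay within a narrow band. Its paralog HOXD11 did not, being at 0.248 CPM in library 1 only.

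Slit-diaphragm genes were detected in part, and some of the core components were at or near 0. NPHS1 had 1 read over all 4 libraries. KIRREL1, a nephrin relative of the immunoglobulin superfamily, gave 678, 378, 383 and 333 CPM, with library 1 well above the others. CD2AP, which links nephrin to actin, gave 238, 242, 229.8 and 204 CPM, and the libraries were close together. The cation channel gene TRPC6 had 2 reads over the 4 libraries and KIRREL2 had 1. In all, 15 of 20 members were detected (75.0%, against 58.6% of protein-coding genes). Those detected included genes expressed in many epithelia, such as the polarity gene PARD3 (72.5 ± 10.6 TPM), the giant cadherin FAT1 (49.0 ± 6.96 TPM) and the kinase FYN (11.6 ± 2.52 TPM).

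CRB2, the gene that the construct carries, was not at 0 in non-induced cells. It gave 8.29, 26.0, 26.3 and 21.6 CPM, from 167, 557, 565 and 364 reads, and library 1 was below every other library. Reads from the construct and from the cells' own gene cannot be told apart in these counts.

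Podocyte transcription factors and foot-process genes were also detected in part. Of the 11 listed factors 5 were detected (45.5%), and 7 when library 1 was left out. Of the 30 foot-process and surface genes 19 were detected (63.3%, against 58.6% of protein-coding genes), and 22 without library 1. LMX1B had 2 reads and PTPRO 8 over the 4 libraries. TCF21, a factor of podocyte and stromal progenitors, gave 0.347, 1.31, 1.07 and 1.01 CPM. PODXL, the main sialomucin of foot processes, gave 2.08, 2.89, 3.40 and 2.14 CPM, and library 4 was as low as library 1. SYNPO, which encodes the foot-process actin regulator synaptopodin, gave 20.2, 46.2, 50.4 and 41.0 CPM, with library 1 at the lower end. PLA2R1, the receptor targeted by antibodies in membranous nephropathy, gave 7.84, 8.25, 10.02 and 9.51 CPM, and the 4 libraries lay in a narrow range.

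Several members were high, among them genes that many cell types express. MYH9, a non-muscle myosin, stood at 1407 ± 376 TPM, ARHGDIA, a guanine-nucleotide dissociation inhibitor, at 758 ± 143 TPM, EZR (ezrin) at 754 ± 135 TPM, UCHL1 at 661 ± 22.2 TPM and ACTN4 at 579.7 ± 70.9 TPM. PDPN, which encodes podoplanin, gave 6.65, 44.6, 46.9 and 47.2 CPM, and library 1 was far below the other 3. Of the defining podocyte markers described here, NPHS1 and PTPRO were thus at or near 0 while SYNPO, PODXL and PLA2R1 were detected. WT1 reached 1 CPM in libraries 2 to 4 only. Set against the label of a podocyte-derived line, some defining markers were thus at or near 0 and others were detected. Among 68 genes in which variants cause nephrotic syndrome, 54 were detected (79.4%, against 58.6% of protein-coding genes). They included ACTN4, ANLN, LMNA, ITGA3 and LAMB2, and 7 of the 68 had 3 or fewer reads in every library.

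**Figure D2:**
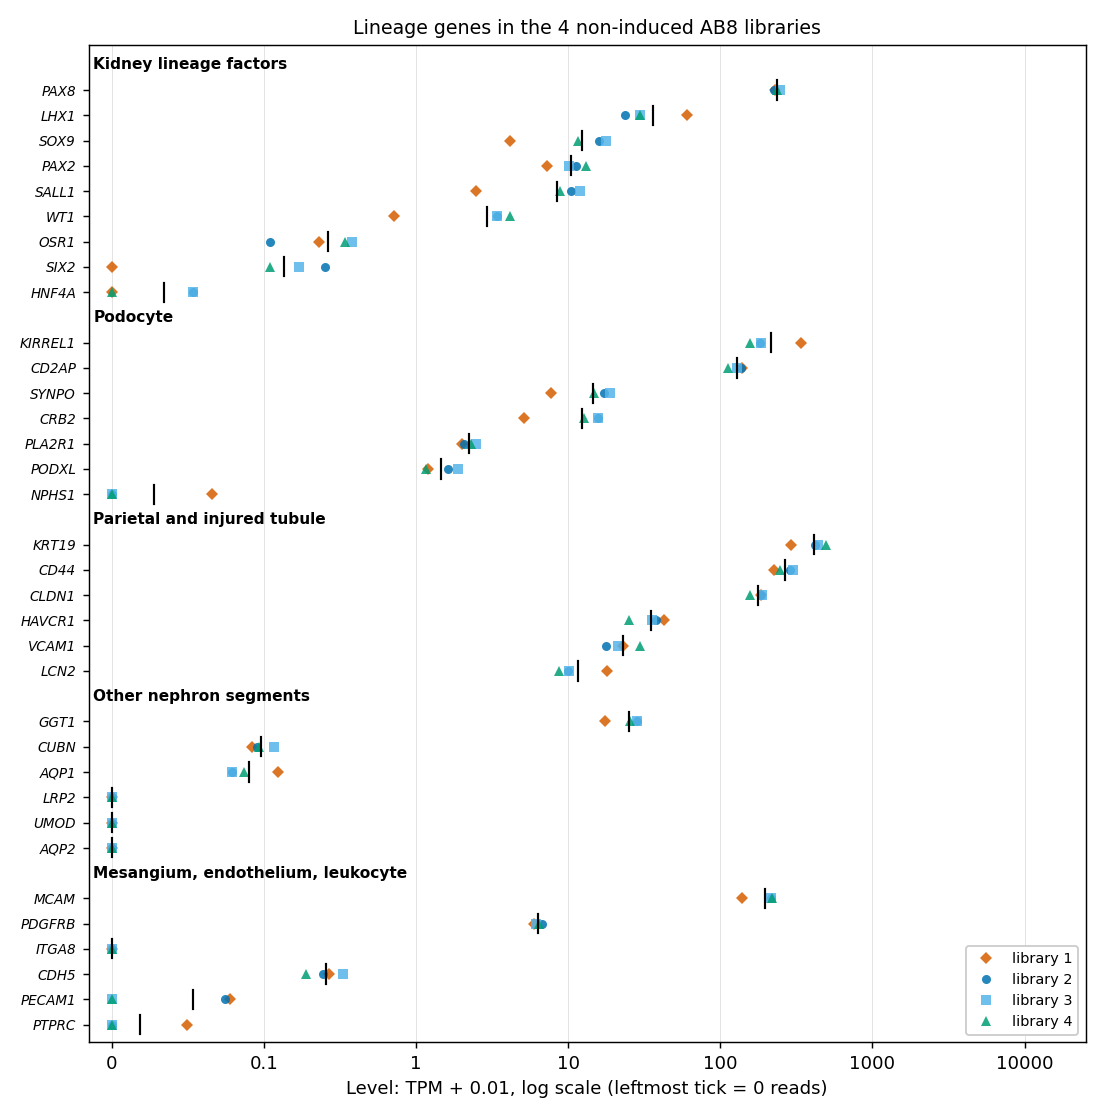
Each row is a gene and each symbol its level in 1 of the 4 non-induced libraries, as TPM plus 0.01 on a log axis whose leftmost tick is 0 reads, and the black bar is their mean. PAX8, KIRREL1, KRT19 and CD44 have means above 200 TPM, LRP2, UMOD, AQP2 and ITGA8 have 0 reads, and library 1 (diamonds) lies below the rest for WT1, SALL1 and SOX9.

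Genes of the parietal epithelium and of injured tubules were mostly detected, 10 of 12 and 14 of 15 members. These shares were 83.3% and 93.3%, against 58.6% of protein-coding genes. CD44, a hyaluronan receptor that rises in activated parietal cells, stood at 265 ± 34.5 TPM, and the tight-junction gene CLDN1 at 178 ± 14.4 TPM. HAVCR1, which encodes the tubular injury marker KIM-1, gave 23.2, 21.2, 20.2 and 14.5 CPM, with library 4 the lowest. VCAM1 gave 35.5, 28.2, 34.0 and 48.2 CPM, with library 4 the highest, and LCN2 gave 7.30, 4.15, 4.24 and 3.74 CPM, with library 1 the highest. CD24, a surface glycoprotein of parietal progenitors, gave 57.5, 15.5, 15.01 and 20.97 CPM, and library 1 was far above the others, whereas PROM1 had 8 reads over the 4 libraries.

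Mature tubule segments left little trace. For the proximal tubule 6 of 22 genes were detected (27.3%, against 58.6% of protein-coding genes). They were led by the peptidase GGT1 (24.9 ± 5.11 TPM) and the inositol oxygenase MIOX (17.4 ± 3.07 TPM). The endocytic receptor LRP2 (megalin) had 0 reads, its partner CUBN 24, the phosphate transporter SLC34A1 3 and the water channel AQP1 5 over the 4 libraries. ANPEP, a brush-border peptidase, gave 1.49, 11.7, 13.0 and 9.57 CPM, with library 1 far below the others. For the loop of Henle, distal tubule and collecting duct 1 of 21 genes was detected (4.76%), the sodium-channel subunit SCNN1A at 6.35, 1.40, 2.38 and 1.90 CPM. UMOD, AQP2, CALB1 and CLDN10 had 0 reads, and SLC12A1 and SLC12A3 had 1 and 4.

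Other cells of the glomerulus and interstitium were represented unevenly. Of the mesangial and pericyte list 9 of 15 were detected (60.0%), close to the 58.6% of protein-coding genes. Among them were MCAM at 197 ± 38.1 TPM, THY1 at 93.4 ± 15.2 TPM and the growth-factor receptor PDGFRB at 6.33 ± 0.339 TPM. ITGA8, which defines mesangial cells, had 0 reads and DES had 8. The endothelial genes PECAM1, CDH5 and KDR had 4, 32 and 0 reads over the 4 libraries. Of the 15 endothelial genes 4 were detected (26.7%), EGFL7, EHD3, ROBO4 and TIE1. The leukocyte gene PTPRC had 1 read, CD68 48, and of the list only CSF1R (1.59, 2.05, 2.05 and 1.72 CPM) was detected. Summed over each list, endothelial genes gave 23.3, 38.1, 38.6 and 37.2 CPM and leukocyte genes 4.57, 4.10, 4.61 and 4.397 CPM in libraries 1 to 4. Among markers of other organs and of pluripotency 3 of 26 were detected (11.5%), POU5F1, SYN1 and PMEL. POU5F1 has processed copies elsewhere in the genome, and its 5.64 CPM cannot be assigned to it with certainty.

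Epithelial and mesenchymal programs were both present, each in part. Vimentin (VIM), the intermediate filament of mesenchymal cells, gave 2537, 3237, 3316 and 3437 CPM, with library 1 the lowest. Simple-epithelium keratins accompanied it, KRT19 at 411 ± 87.8 TPM, KRT18 at 304 ± 31.3 TPM, KRT7 at 278 ± 35.5 TPM and KRT8 at 259 ± 34.0 TPM, and the libraries of each neighbouring pair in that order overlapped. The order depends on the length used, since with the longest transcript in place of merged exons KRT7 stood at 473 and KRT8 at 455 TPM. Per length, VIM was 8.95 ± 0.293 times KRT8 (SD over the 4 libraries) on merged exons, a ratio nearly equal in all of them. Keratins of stratified epithelium were divided. KRT6A, KRT13, KRT14 and KRT16 had 0 reads and KRT5 had 8, all in library 1. KRT10, also of stratified epithelium, was detected at 106 to 119 TPM. Of the 17 listed keratins 7 were detected (41.2%, against 58.6% of protein-coding genes).

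Of the cadherin genes CDH1, CDH2 and CDH3, only CDH2 was detected. CDH2 (N-cadherin) gave 202, 267.1, 254 and 232 CPM, whereas CDH1 (E-cadherin) had 3 reads over the 4 libraries and CDH3 (P-cadherin) had 0. Desmosomes were nevertheless represented, by DSG2 at 135 ± 15.6 TPM, desmoplakin (DSP) at 75.6 ± 2.27 TPM and JUP at 65.7 ± 8.04 TPM. The zonula-occludens gene TJP1 stood at 73.5 ± 12.2 TPM. CLDN4 gave 28.1, 101, 95.1 and 76.1 CPM, with library 1 far below the others, and CGN gave 17.4, 5.92, 6.34 and 7.61 CPM, with library 1 far above. In all, 24 of 30 junction genes were detected (80.0%, against 58.6% of protein-coding genes).

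Regulators of the epithelial state were mostly not. GRHL2, which maintains E-cadherin, had 0 reads, OVOL2 had 1, OVOL1 6 and the splicing factor ESRP1 7. Its paralog ESRP2 was detected at 43.6, 31.8, 29.9 and 27.0 CPM and the factor ELF3 at 30.6, 14.97, 17.2 and 18.5 CPM, both highest in library 1. EPCAM, a surface protein of simple epithelia, gave 37.5, 22.4, 20.4 and 30.2 CPM, and here too library 1 was the highest. The protease inhibitor SPINT2 stood at 106 ± 5.60 TPM. Of the epithelial identity list 7 of 16 members were detected (43.8%, against 58.6% of protein-coding genes).

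Among mesenchymal genes 19 of 22 were detected (86.4%, against 58.6% of protein-coding genes). The receptor kinase AXL stood at 550.2 ± 59.9 TPM. Several transcription factors that repress E-cadherin were detected at low levels. SNAI2 stood at 24.1 ± 0.986 TPM, TWIST1 at 20.1 ± 2.80 TPM and SNAI1 at 16.4 ± 2.51 TPM. ZEB1 stood at 13.5 ± 2.01 TPM and ZEB2 at 7.18 ± 1.28 TPM. SNAI2 gave 20.3, 21.6, 22.6 and 21.2 CPM, nearly equal in the 4 libraries. TWIST2 and PRRX1 had 1 and 2 reads over the 4 libraries. Smooth-muscle actin (ACTA2), the marker of myofibroblasts, stood at 2.99 ± 0.698 TPM, and TAGLN (transgelin) gave 68.3, 269, 261 and 336 CPM, lowest in library 1. NT5E, an ecto-nucleotidase, gave 31.0, 126, 125 and 86.2 CPM, also lowest there.

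**Figure D3:**
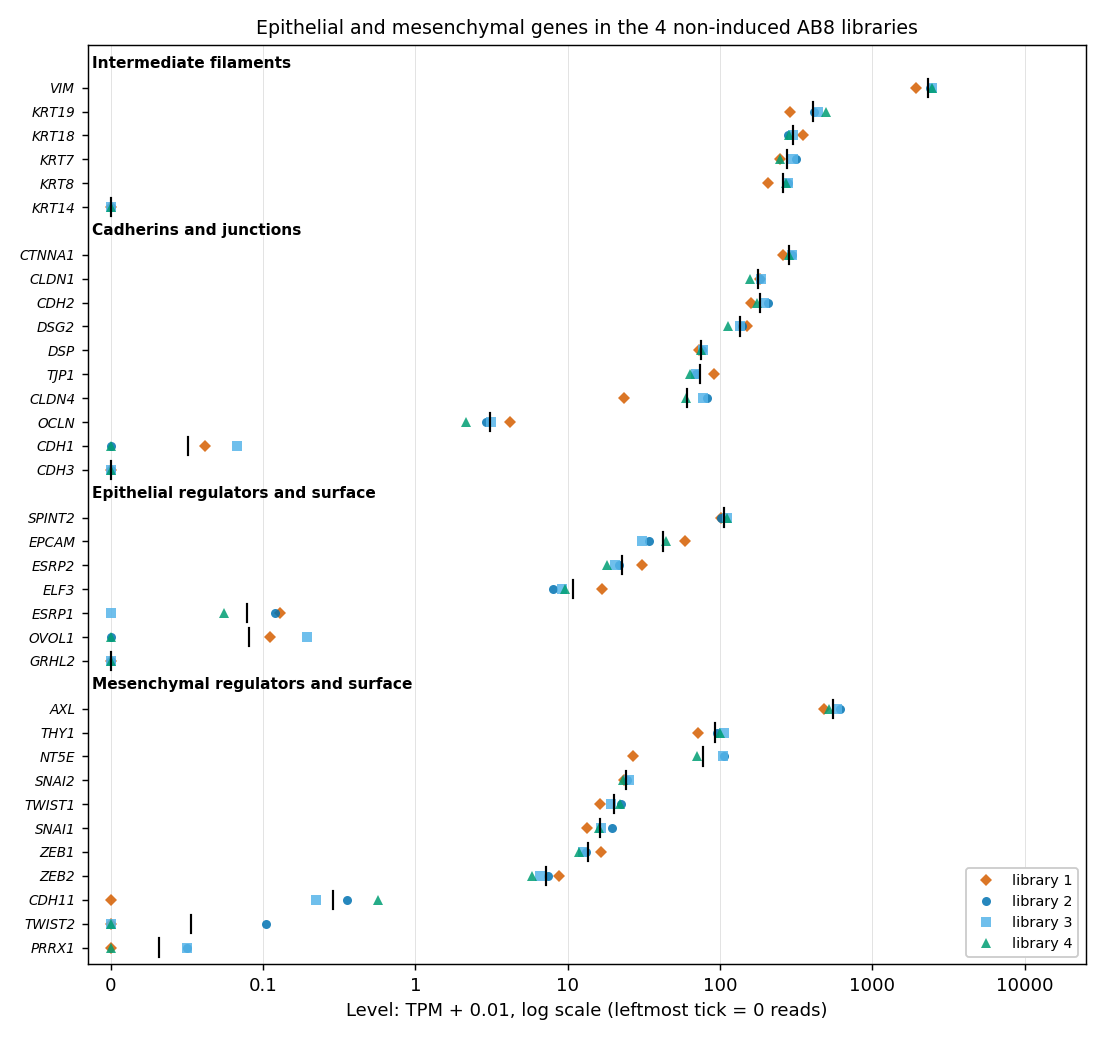
Levels of epithelial and mesenchymal genes in the 4 non-induced libraries, as TPM plus 0.01 on a log axis whose leftmost tick is 0 reads, with 1 symbol per library and a black bar at the mean. VIM, simple keratins, CDH2 and desmosome genes lie to the right, and CDH1, CDH3, GRHL2, KRT14, TWIST2 and PRRX1 lie at or near 0.

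The actin cytoskeleton list was detected in full, 26 of 26 genes against 58.6% of protein-coding genes, with a median of 502 TPM. Profilin (PFN1) stood at 3233 ± 200.4 TPM, filamin A (FLNA) at 961 ± 171 TPM, cofilin (CFL1) at 642 ± 82.0 TPM and tropomyosin TPM4 at 576 ± 114.5 TPM. Summed over the list, libraries 1 to 4 gave 24704, 37352, 36779.9 and 35968 CPM, so library 1 was the lowest. In 23 of the 25 members with a mean of at least 10 CPM library 1 was below every other library, against 38.9% of all 9857 genes at that level. The gene lists were chosen with earlier results of these data known, so this contrast is a description only.

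Basement membrane genes were led by collagen IV, laminin chains and the proteoglycan agrin. AGRN stood at 374 ± 43.4 TPM, COL4A2 at 338 ± 45.4 TPM and COL4A1 at 264 ± 57.0 TPM. With the longest transcript as length COL4A2 and COL4A1 stood at 733 and 429 TPM. COL4A1 and COL4A2 encode the chains of the common collagen IV network and start 126 bases apart on opposite strands of chromosome 13 (RefSeq, GRCh38.p14). COL4A1 gave 668, 1136, 1139 and 1142 CPM and COL4A2 1350.3, 1888, 1868 and 1732 CPM, both lowest in library 1, and the ratio of COL4A2 to COL4A1 per length of merged exons was 1.31 ± 0.166 (SD, n = 4). The chains that podocytes add to the mature glomerular basement membrane were at or near 0, with 3 reads for COL4A3 and 22 for COL4A4 over the 4 libraries. COL4A5, the remaining chain of that network, gave 5.96, 5.50, 7.32 and 4.52 CPM.

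Laminin genes were uneven between chain types. Per length LAMB3 stood at 322 ± 20.3 TPM, LAMC1 at 201 ± 25.0 TPM and LAMB1 at 175 ± 17.2 TPM, while the alpha chain with the highest mean, LAMA3, stood at 9.16 ± 2.46 TPM, so LAMB3 was 36.6 ± 7.38 times LAMA3. LAMA3 was the highest alpha chain in libraries 2 to 4, whereas in library 1 LAMA5 lay above it, at 17.6 against 12.8 TPM. LAMA5, the alpha chain of the glomerular basement membrane, gave 63.9, 7.55, 10.3 and 6.48 CPM, and its level without library 1 was 8.03 ± 1.93 CPM (SD, n = 3). LAMB2, the beta chain of the mature glomerular basement membrane, gave 54.9, 78.6, 80.1 and 68.0 CPM. Of the 24 basement membrane genes 18 were detected (75.0%, against 58.6% of protein-coding genes).

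The interstitial matrix was represented in part. FN1 (fibronectin) gave 3231, 4663, 4492 and 3846 CPM, with library 1 the lowest, and stood at 894 ± 139 TPM. COL1A1 gave 1467, 1287, 1342 and 1425 CPM, close together in all libraries, while COL1A2, its partner in type I collagen, had 0 reads in all 4 and COL3A1 had 3. COL6A1 and COL6A2 stood at 105 ± 18.8 TPM and 91.8 ± 29.2 TPM, the third chain, COL6A3, at 0.319 ± 0.188 TPM. The fibroblast genes DCN, PDGFRA and DPT had 14, 0 and 0 reads, although LUM, which encodes another small proteoglycan of connective tissue, gave 94.8, 56.4, 54.3 and 64.6 CPM. FBN1 (fibrillin) gave 67.2, 283, 269.9 and 236 CPM, and library 1 was far below the others. Of 26 interstitial matrix genes 16 were detected (61.5%), close to the 58.6% of protein-coding genes. Without library 1, 20 were detected, the additional genes being COL6A3, FBLN1, LTBP1 and MFAP2.

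Matricellular and crosslinking genes had a median of 103 TPM over the 20 listed, and 19 were detected (95.0%, against 58.6% of protein-coding genes). CCN1, an immediate-early matrix signal, stood at 2096 ± 345 TPM. THBS1 (thrombospondin) gave 548, 5227, 4496 and 4619.8 CPM, and its level without library 1 was 4743 ± 388 CPM (SD, n = 3). CCN2 gave 50.7, 240.4, 248 and 168 CPM and TNC (tenascin) gave 114, 419, 379.9 and 326 CPM. In THBS1, CCN2 and TNC library 1 was far below the range of the others. SPARC went the other way by a small margin, at 854, 704, 694 and 767 CPM. Of the 17 members with a mean of at least 10 CPM, 6 were 2-fold or more lower in library 1 than the mean of libraries 2 to 4, and 0 were 2-fold or more higher. Over all 9857 genes at that level 1.8% were 2-fold or more lower and 0.984% 2-fold or more higher. This list too was chosen with earlier results of these data known.

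GREM1, which encodes a secreted antagonist of bone morphogenetic proteins, gave 1161, 2558, 2464 and 2315 CPM, placing it among the 20 highest genes by CPM. It stood at 553 ± 164 TPM. Proteases and inhibitors followed, PLAU at 359 ± 58.1 TPM, MMP14 at 291 ± 30.4 TPM, TIMP2 at 268 ± 20.2 TPM and TIMP1 at 203 ± 27.3 TPM, while TIMP3, whose promoter window is shown above, had 0 reads in all 4 libraries. The secreted metalloproteinases MMP3 and MMP10 had 2 and 2 reads. Among integrins, ITGB1 stood at 427 ± 60.7 TPM and ITGA3, its podocyte partner for laminin, at 222 ± 50.6 TPM. ITGA4 was highest in library 1, at 47.2, 23.7, 23.6 and 20.9 CPM, and ITGB8 lowest there, at 39.4, 132, 138 and 137 CPM.

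**Figure D4:**
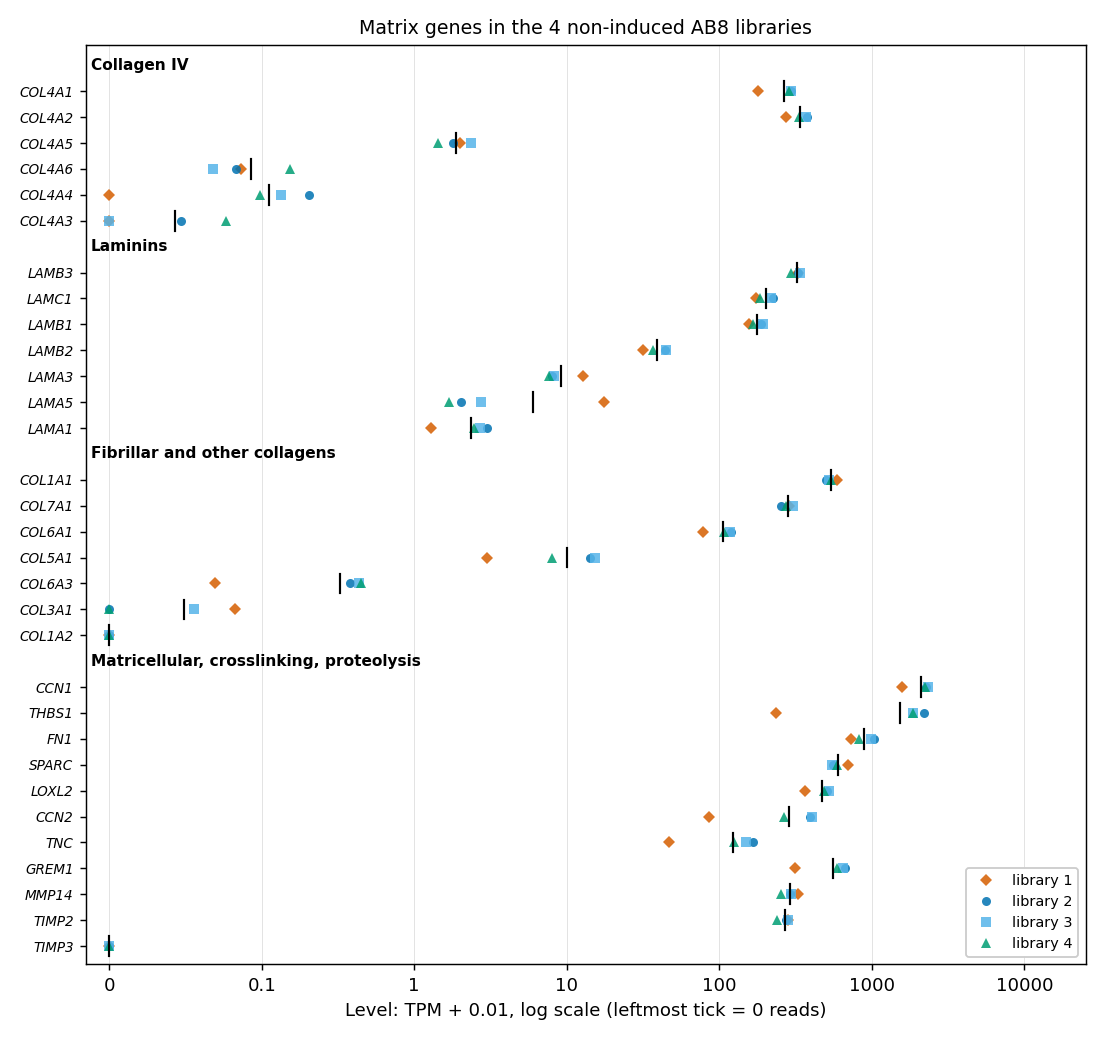
Levels of matrix genes in the 4 non-induced libraries, as TPM plus 0.01 on a log axis whose leftmost tick is 0 reads, with 1 symbol per library and a black bar at the mean. COL1A1 lies above 500 TPM and COL1A2 at 0 reads, and library 1 (diamonds) lies apart from the rest for THBS1, CCN2, TNC and LAMA5.

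Cell cycle genes were detected throughout. All 20 cell cycle genes were detected, against 58.6% of protein-coding genes. Among them were PCNA at 954 ± 79.1 TPM, TOP2A at 498 ± 38.9 TPM, CCNB1 at 442 ± 23.1 TPM and MKI67 at 165 ± 22.2 TPM. MKI67 gave 457, 589.9, 638 and 530.3 CPM, lowest in library 1. Telomerase (TERT), silent in most adult cells, gave 338, 394, 459.8 and 301 CPM, and counts cannot separate a transferred copy from the cells' own gene. CDKN2A, which encodes the inhibitors p16 and ARF, gave 298, 195, 198 and 209 CPM, and CDKN1A, a target of p53, gave 54.6, 26.9, 23.8 and 22.8 CPM, both highest in library 1. CDKN1C, which marks mature podocytes, gave 28.3, 89.1, 61.0 and 82.1 CPM, lowest there.

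Several inflammatory genes were high. The chemokine gene CXCL8 gave 1199, 1266, 1311 and 1264 CPM, nearly equal in the 4 libraries, and stood at 2114 ± 60.9 TPM. CXCL1 stood at 1952 ± 134 TPM, CSF2 at 759 ± 132 TPM and IL6 at 536 ± 131 TPM. IL6 gave 202, 264, 318 and 384 CPM and CCL2 gave 116, 52.8, 66.1 and 135 CPM, so CCL2 differed between libraries 2, 3 and 4 as well. ICAM1, an adhesion receptor for leukocytes, gave 286, 120.2, 139 and 134 CPM and SOD2 gave 535, 292, 296 and 259.9 CPM, both with library 1 far above the others. Of the 19 listed genes 18 were detected (94.7%, against 58.6% of protein-coding genes). IL1B, at 0.149, 2.24, 3.31 and 4.397 CPM, was the exception through library 1.

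Of the receptor list 19 of 30 genes were detected (63.3%), close to the 58.6% of protein-coding genes. MET had the highest mean of the list at 156 ± 23.4 TPM, and EGFR stood at 67.3 ± 11.2 TPM. INSR, the insulin receptor, had 6, 5, 0 and 0 reads in libraries 1 to 4, and its promoter window held 28 CG dinucleotides. The angiotensin receptor AGTR1 had 10 reads over the 4 libraries, ESR1 0 and AGTR2 0. The glucocorticoid receptor NR3C1 gave 80.8, 82.2, 76.7 and 69.9 CPM.

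The spread among the 4 libraries was set mainly by library 1. The common biological coefficient of variation, edgeR's estimate of the relative spread beyond counting noise, was 15.7% over the 4 libraries and 14571 genes. It was 6.39% without library 1 and 17.6% to 18.1% when library 2, 3 or 4 was left out. Over the 9857 genes with a mean of at least 10 CPM, Pearson correlations of log2 CPM across genes were 0.943 to 0.947 between library 1 and each other library and 0.992 to 0.997 among libraries 2 to 4. Genes are not independent replicates. Library 1 lay outside libraries 2 to 4 in both directions, below them for 38.9% of these genes and above them for 38.6%. The highest library was 2-fold or more above the lowest for 363 of 9857 genes (3.68%), and for 14 of them (0.142%) over libraries 2 to 4 alone. In a check for a library deposited more than once, the closest pair was libraries 2 and 3, whose counts differed by a chi-square of 2.88 per gene, so all were kept as separate libraries.

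Among the genes that the naming rule admits, 6 were under 1 CPM in library 1 and at least 10 CPM in each of the others. The transcription factor FLI1 gave 0.0496, 20.6, 22.5 and 15.2 CPM, from 1, 441, 483 and 256 reads. TSPAN18, a tetraspanin, gave 0.248, 36.4, 38.5 and 21.7 CPM, and CDYL2, a chromodomain protein, gave 0.149, 24.6, 20.6 and 18.2 CPM. LYPD1, HAS2, which makes hyaluronan, and ZNF43 completed the set and were named after their values were seen. HAS2 had 7, 257, 298 and 174 reads in libraries 1 to 4. None of the genes admitted showed the reverse pattern.

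The 12 genes with the largest SD of log2 CPM also included several that library 1 held at high levels. SCD, which encodes stearoyl-CoA desaturase and makes monounsaturated fatty acids, gave 319, 1.77, 1.77 and 2.55 CPM, so library 1 was the only one above 3 CPM. LTB, a member of the tumour necrosis factor family, gave 67.8, 4.71, 5.31 and 8.91 CPM. The others of the 12 besides THBS1 and LAMA5 were low in library 1, namely ANGPTL4, SIM2 (2.23, 86.9, 87.4 and 74.1 CPM), ADGRF1, CPT1A (4.02, 58.3, 51.8 and 36.5 CPM) and GNG4, together with FLI1, TSPAN18 and CDYL2. CPT1A carries fatty acids into mitochondria for oxidation.

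The 12 genes that varied most among libraries 2 to 4 shared only ANGPTL4 with the 12 above. EIF3C gave 37.1, 12.6, 13.3 and 40.3 CPM, but it has a near-identical copy and its value is uncertain. Next came ANGPTL4, IFIT2 (327, 157, 183 and 72.3 CPM), CCL2, IFNB1 (25.6, 6.53, 7.92 and 3.15 CPM), CCL5 (37.2, 27.2, 30.8 and 13.1 CPM), OASL (48.3, 51.2, 62.3 and 26.1 CPM), KLF4, NBEAL1, NPIPB5, IFIH1 and STC1. IFNB1 encodes interferon beta, and IFIT2, OASL and IFIH1 are interferon-induced genes. Among libraries 2 to 4, library 4 was the highest for EIF3C, CCL2 and NPIPB5 and the lowest for the rest of the 12.

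At the other end, the 12 steadiest genes had a highest library at most 1.02 times their lowest. SMARCA1, a chromatin remodeller, gave 94.3, 94.7, 94.3 and 94.7 CPM, and RHOA, the small GTPase of stress fibres, gave 729, 731, 725 and 724 CPM. ALKBH3, XRCC4, TNPO3, PSMD3, COPS3, GTPBP3, SKIC2, MED24, UBA1 and NCKAP5L made up the rest. None of them is a member of the gene lists used here.

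**Figure D5:**
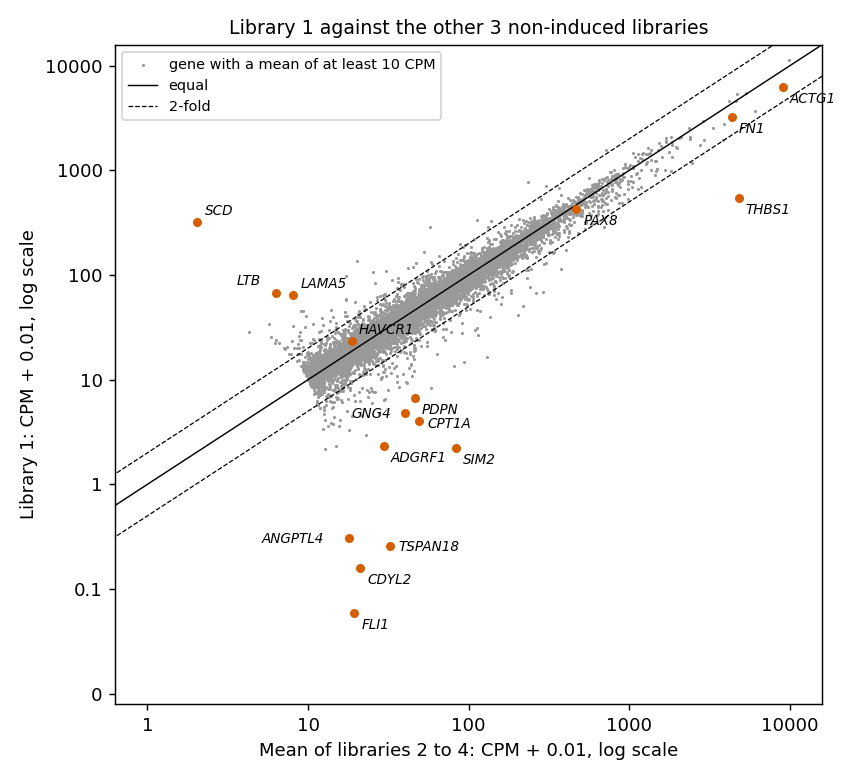
Each grey point is 1 of the genes with a mean of at least 10 CPM, with the mean CPM of libraries 2 to 4 on the x axis and the CPM of library 1 on the y axis, both plus 0.01 on log axes, and named genes in orange. PAX8, HAVCR1 and FN1 lie within the dashed 2-fold lines, SCD, LTB and LAMA5 lie above them, and FLI1, CDYL2, TSPAN18 and THBS1 lie below.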

How the data were processed

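RNA of 4 non-induced AB8 samples was read from the authors' table of raw counts per Ensembl gene, and their second deposited table, a normalized signal equal to the counts divided by 1 factor per library, served as an alternative. Tools named in the submitters' processing notes are HISAT2 2.1.0 (an aligner), HTSeq 0.11.1 (a read counter), DESeq2 1.24.0, Trimmomatic 0.38 and bcl2fastq, with GRCh38 (also given as hg38) as the build. Per the labels' protocols, total RNA was sequenced on a NextSeq 500 from a directional kit as single reads of 75 bases. Neither the annotation release nor the strand setting used for counting is stated there or in the labels. GENCODE 29 matched 58275 of 58395 genes.

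CPM values rest on TMM factors from edgeR 4.0.16 (R 4.3.3), and TPM used the length of merged exons. The coefficient of variation came from edgeR's dispersion with an intercept only, after filterByExpr (minimum count 10), and was tested on simulated data. Log2 CPM used a prior of 0.1. No groups were compared and no p-value was computed. Dixon's criterion picked out single libraries far from the other 3, and a chi-square per gene served to look for a library deposited more than once. The members and the 33 gene lists (30 by symbol, 3 by symbol pattern) were chosen with earlier results of these data known. Named genes were the 20 highest by CPM and by TPM, list members, the given markers, CRB2, and the 12 genes with the largest and smallest SD of log2 CPM (mean of at least 10 CPM), also the largest without library 1, leaving out pseudogenes, clone-based names, chromosome Y and XIST. Some list members are counted in their lists but not reported here by name. Alternatives were other scalings, thresholds of 0.5 and 2 CPM, other filters and lengths, and leaving out each library.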

Additional observations from a re-analysis of the deposited data

Results flagged for a closer look

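In 31 of the 198 genes described, 1 library lay so far from the other 3 that its gap to the nearest of them took up nearly the whole range of the group. Chance alone marks about 1 gene in 20 in this way, but the count cannot be read against that share, because some of these genes were named for their spread between the libraries. In all 31 the library standing apart was library 1, which was the lowest in 16 genes and the highest in 15. Among genes of the actin cytoskeleton and its linkers, library 1 was the lowest for ACTB at 3689, CFL1 at 774, EZR at 471, MYH9 at 1938, PFN1 at 1482 and TPM4 at 897 CPM. Among matrix, adhesion and surface genes it was the lowest for CCN1 at 988, COL4A1 at 668, ITGB8 at 39.4, MCAM at 263 and THBS1 at 548 CPM. It was also the lowest for ADM at 26.5, DSP at 186, KRT8 at 364, PDPN at 6.65 and SIM2 at 2.23 CPM.

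Library 1 was the highest for CD24 at 57.5, CGN at 17.4, ITGA4 at 47.2, KIRREL1 at 678, LAMA3 at 47.9 and LAMA5 at 63.9 CPM, genes of laminin alpha chains, junctions and the cell surface. It was the highest as well for CDKN1A at 54.6, CDKN2A at 298, ICAM1 at 286, LCN2 at 7.30, LTB at 67.8 and SOD2 at 535 CPM, which are genes of inflammation and of cell cycle inhibition, and for GAS5 at 306, HOXB9 at 82.2 and SCD at 319 CPM. Summed over gene lists, library 1 stood apart with 24704 CPM for the actin cytoskeleton, 4613.5 CPM for matricellular and crosslinking genes, 1268 CPM for keratins, 23.3 CPM for endothelial genes (all lowest) and 9.53 CPM for loop, distal and collecting duct genes (highest). The share of reads on mitochondrial genes stood apart in library 4, at 3.91%. What sets library 1 apart was not tested.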

How the results depend on the processing

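No paired analysis was possible because only the non-induced libraries are described and no groups are compared. Rescaling by DESeq2-type size factors (RLE), by plain library totals or by the deposited normalized table moved none of the 198 gene means by more than the spread between libraries, and none of the 33 list counts by more than 1.5 times. Dropping mitochondrial genes from the totals lowered the share of the 100 most abundant genes from 17.8% to 16.0%, by construction. It also moved 4 of 197 gene means by more than the spread between libraries. With detection at 0.5 CPM, loop, distal and collecting duct genes rose from 1 to 2 and leukocyte genes from 1 to 2, and at 2 CPM these lists fell to 0 and 0 and other lineages from 3 to 1. Leaving out 1 library at a time, leukocyte genes ranged from 1 to 2.

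Genes with a 2-fold range numbered 363, and from 13 (without library 1) to 345 with 1 library left out, where the mean of 10 CPM is taken over the remaining libraries. With a mean of at least 1 CPM they numbered 1337. The common biological coefficient of variation was 15.7%, between 6.39% (without library 1) and 18.1% with 1 library left out, and 17.3% with no filter on low counts. Using the longest transcript as length, TPM of 72 of the 198 genes moved by more than the spread between libraries. TPM of 16 of the 198 moved by more than 1.5 times, up to 2.46 times for CDKN2A. Besides COL4A1, COL4A2, KRT7 and KRT8, given above, these included ENO1 (3162 TPM), PKM (2201 TPM), LDHA (1595 TPM), CFL1 (1463 TPM), TPM4 (1169 TPM), SNHG5 (578 TPM) and GAS5 (425 TPM). Without library 1 the mean fell by more than 1.5 times for SCD (2.02 CPM), LTB (6.26 CPM), LAMA5 (8.03 CPM), CD24 (17.0 CPM), IFNB1 (5.82 CPM), RN7SL2 (4.95 CPM) and SCNN1A (1.88 CPM) and for 10 genes with means under 1 CPM. Depth limits every gene with few reads, since 3 reads correspond to 0.140 to 0.178 CPM.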

Other observations

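Most genes of glycolysis and the hypoxia response were detected in the non-induced cells. GAPDH gave 4570.3, 4562, 4706 and 4541 CPM, and ENO1, TPI1, PKM and LDHA stood at 2091 ± 89.1 TPM, 932 ± 39.4 TPM, 1061 ± 65.9 TPM and 850.0 ± 77.9 TPM. Of the 23 genes of glycolysis and the hypoxia response, 20 were detected (87.0%), against 58.6% of protein-coding genes. The hypoxia markers CA9 and EGLN3 were not, with 14 and 86 reads over the 4 libraries. ADM, a hypoxia-responsive peptide hormone gene, gave 26.5, 117, 109 and 115.4 CPM, with library 1 far below the others. ALDOA, a glycolytic enzyme gene that overlaps other gene models, gave 7.82 CPM and cannot be counted with certainty.

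The 16 listed noncoding genes were led per length by the small nucleolar RNA host genes SNHG5 (291 ± 16.6 TPM) and GAS5 (272 ± 39.3 TPM) and by SNHG1 (156 ± 18.2 TPM). Mitochondrial ribosomal RNAs are not on that list and were higher, MT-RNR2 at 24968 and MT-RNR1 at 3929 TPM. MALAT1 gave 292, 291, 329 and 349 CPM and NEAT1, the scaffold of paraspeckles, gave 656, 478, 613 and 609 CPM. The imprinted H19 had 0 reads in all 4 libraries and MEG3 had 8 over all 4. The short structural RNAs RN7SK, RN7SL1, RMRP and RPPH1 were listed at 0, while RN7SL2 gave 16.8, 1.82, 0.979 and 12.2 CPM.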
